A study of Caenorhabditis elegans with 8 samples.

Results

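P granules are RNA-protein condensates that lie on the outer face of germ cell nuclei in the nematode Caenorhabditis elegans. Small RNA reads at 9 genes for their core proteins were followed through all 8 libraries of a study of the zsp-1 mutant. The 9 genes were taken by name from a list of P granule genes, out of 20191 genes in the count files: pgl-1 and pgl-3, glh-1, glh-2, glh-3 and glh-4, deps-1, C38D4.4 and F58G11.3. In the current annotation C38D4.4 is called mip-1 and F58G11.3 mip-2. All 9 passed the filter on low counts, which kept 4567 genes.

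The libraries formed 4 groups of 2. They were zsp-1 mutants (strain YY1683, genotype written zap-1(-) in the labels) on oma-1 RNAi food, zsp-1 mutants on L4440 food, wild type (strain N2) on oma-1 RNAi food and wild type on L4440 food. Both foods were HT115 bacteria, an Escherichia coli strain used for RNAi by feeding, which either expressed double-stranded RNA of the oocyte gene oma-1 or carried the empty vector L4440. RNA came from whole adults on day 1, described as gravid in one label and as young adults in another, grown at 20 °C, and RNAs of about 18 to 35 nt were cloned by a method that does not need a 5′ monophosphate. The labels do not state whether the 2 libraries of a group are from separate cultures. Every p-value therefore measures only the spread between these libraries, which may be technical.

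The proteins have different places in the granule. PGL-1 and PGL-3 are self-associating scaffold proteins, and GLH-1 to GLH-4 are DEAD-box RNA helicases related to Vasa. DEPS-1 is needed for normal P granule assembly, and MIP-1 and MIP-2 are LOTUS-domain proteins that bind GLH-1. ZSP-1 belongs to the neighbouring Z granule. The reads counted here are not the messenger RNAs of these genes: they are small RNAs, labelled 22G siRNAs, a kind that RNA-dependent RNA polymerases copy from a messenger RNA and that Argonaute proteins such as CSR-1 or the WAGO proteins bind. A level is therefore a measure of how much small RNA maps to the gene, in CPM (reads per library size, with sizes adjusted by the TMM method).

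Library totals ranged from 136908 to 340932 reads, so that 1 read was worth 3.09 to 8.72 CPM. The libraries of a group differed by 2.06 to 5.05 times the sampling noise (chi-square per degree of freedom over genes with at least 20 reads in the pair). Reads at zsp-1 itself (named pid-2 in the files) averaged 31.8 ± 11.9 CPM in the mutant and 408.5 ± 95.2 CPM in wild type (SD, n = 4 each). The 7 germ line marker genes held 0.153% of all reads, all 7 with reads, against 0.000391% for 5 muscle markers, of which myo-3 and tnt-3 were at 0, and 0.00067% for 6 intestine markers, of which act-5 was at 0. Reads were thus found at the germ line markers and hardly at those of muscle or intestine, although whole animals contain all 3 tissues.

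The 9 genes lie on 4 chromosomes of build WBcel235, with 5 of them on chromosome I. By the count files pgl-1 spans chromosome IV 6974401 to 6977318, pgl-3 chromosome V 4755985 to 4758584, C38D4.4 chromosome III 4793086 to 4795423 and F58G11.3 chromosome V 13669353 to 13671958. On chromosome I, deps-1 spans 506469 to 509056, glh-4 3726011 to 3731265, glh-3 5792324 to 5795114, glh-2 6513928 to 6517507 and glh-1 6854688 to 6857529. All are protein-coding, and reads were counted over exons with lengths of 1.834 kb (C38D4.4) to 3.873 kb (glh-4). Only deps-1 shares exonic bases with another gene of the files: 207 bases, 10.1% of its counted length, overlap Y65B4BL.7 on the opposite strand. The GLH genes are paralogs, as are the PGL genes, and reads that fit several paralogs could have been placed on any of them or dropped, since the treatment of such reads is not given in the sources used here.

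Together the 9 genes took 0.327 ± 0.0548% of reads in the mutant and 0.364 ± 0.0718% in wild type (SD, n = 4 each), from 0.276 to 0.393% and from 0.303 to 0.458%, so the genotypes overlapped. The germ line markers took from 0.131 to 0.158% of reads in the mutant and from 0.130 to 0.193% in wild type, and their part in this sum was not tested. The summed level of the 9 genes was 3573 ± 306 CPM in the mutant and 3726 ± 610 CPM in wild type (SD, n = 4 each). In bulk samples such as these, fewer germ cells and less small RNA per germ cell cannot be told apart.

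Levels were compared between genes per length, as CPM per kb (RPKM). The members spanned a wide range, and glh-4 stood at the top and glh-2 at the bottom. Over the 8 libraries glh-4 averaged 350.2 ± 59.4 RPKM (SD, n = 8), 5.86 times the median of 59.8 RPKM over all tested genes and above 92.3% of them. C38D4.4 followed with 203.3 ± 43.4 RPKM, then pgl-1 with 193.5 ± 24.3, pgl-3 with 170.3 ± 28.8, glh-1 with 145.7 ± 37.7 and F58G11.3 with 130.1 ± 25.5 RPKM (SD, n = 8 each). Lower levels were found at deps-1 with 73.5 ± 23 RPKM, glh-3 with 55.9 ± 6.3 RPKM and glh-2 with 26.3 ± 9.13 RPKM (SD, n = 8 each), and glh-2 lay above only 12.3% of tested genes.

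Some steps in this order held within every library and others did not. In each library, where scaling cancels, glh-4 was above C38D4.4, F58G11.3 above deps-1 and glh-3 above glh-2 in 8 of 8. The 4 neighbours from C38D4.4 down to glh-1 did not differ beyond their spread, with the higher gene ahead in 5 or 6 of 8 libraries and ratios of means of 1.05 to 1.17. The same holds for glh-1 and F58G11.3 (5 of 8 libraries), and deps-1 was above glh-3 in 2 of 4 mutant libraries and 4 of 4 wild-type libraries. Helicase paralogs thus held both ends of the order, and the PGL scaffold genes lay side by side in it.

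**Figure D1:**
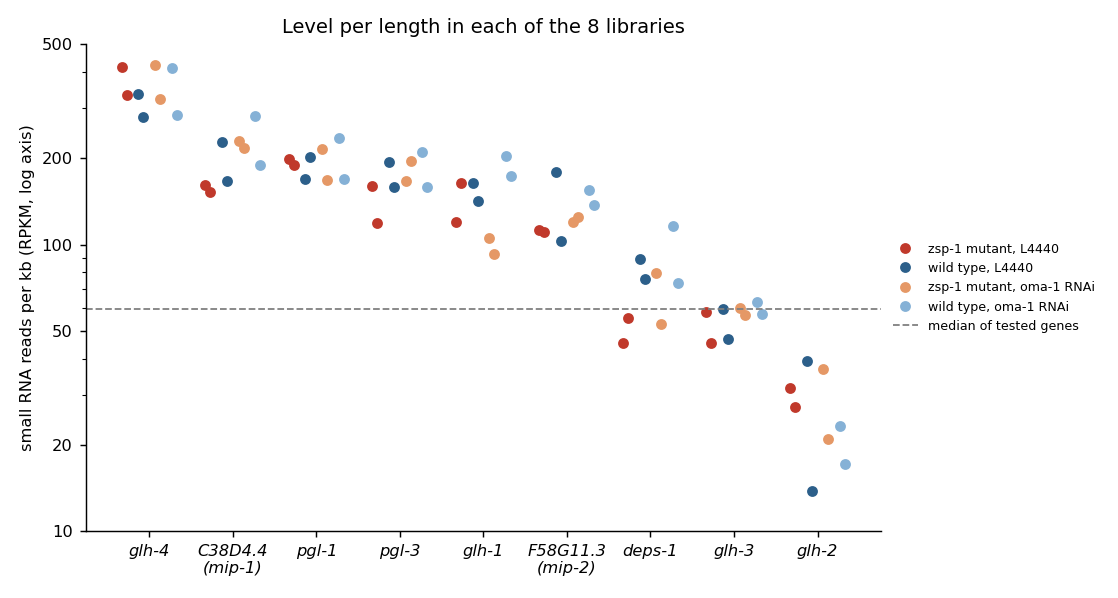
Small RNA level per length (RPKM, log axis) at each of the 9 genes, in order of their mean, with 1 point per library coloured by group; the dashed line is the median of all tested genes, 59.8 RPKM. The glh-4 points lie between 277.8 and 421.8 RPKM, and all glh-2 points lie below the dashed line.

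The main question of the series is what changes in the zsp-1 mutant, and averaged over both foods none of the 9 genes was called by edgeR's quasi-likelihood test at an adjusted p under 0.05. Of all tested genes 23.1% were called in that comparison. Unadjusted p was under 0.05 at 2 of the 9, glh-1 and deps-1, and DESeq2 also called 0. That count depended on the model: with the replicate number as a block, 2 of the 9 were called lower, glh-1 (-0.55, adjusted p = 0.00433) and deps-1 (-0.68, adjusted p = 0.0103). The log2 fold changes ran from -0.63 to 0.37 with a median of -0.17, beside -0.08 over all tested genes. Of the 9, 7 lay below 0, as did 56.7% of tested genes. No member had all 4 mutant libraries outside the range of the 4 wild-type libraries, which 12.3% of tested genes did in each direction.

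**Figure D2:**
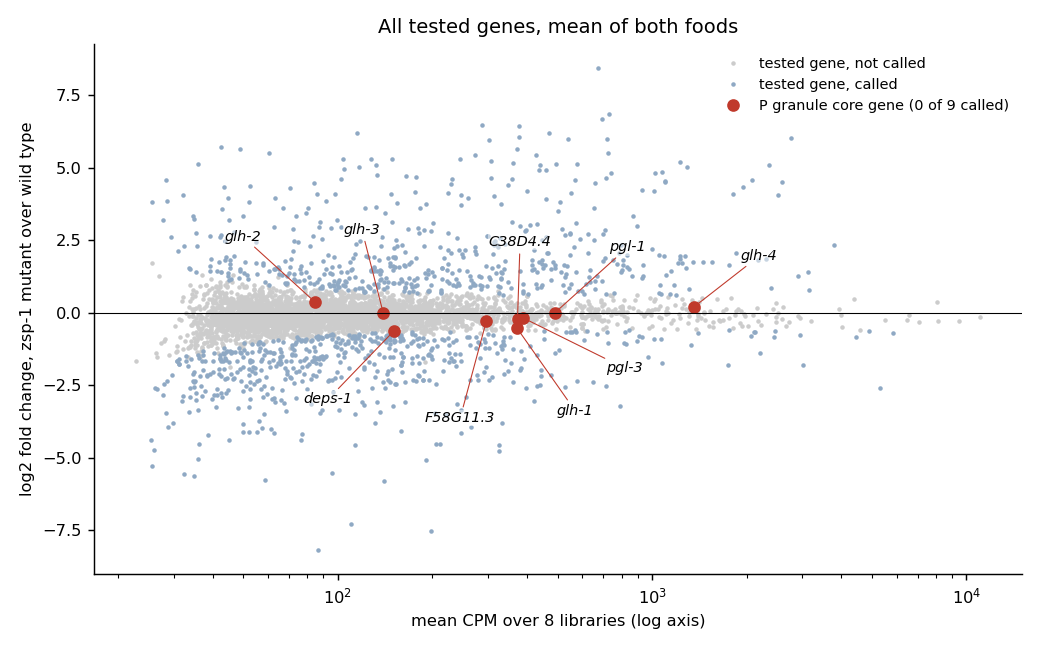
Log2 fold change of zsp-1 mutant over wild type, averaged over both foods, against mean CPM over 8 libraries (log axis), with 1 point per tested gene. The 9 P granule core genes (red) lie between -0.63 and 0.37 inside the band of genes that were not called, while called genes (blue) reach beyond 5 in both directions.

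Neither PGL scaffold gene was called, and pgl-1 had nearly equal mean levels in both genotypes. At pgl-1 the mutant libraries had 503.9 and 479.7 CPM on L4440 and 546.0 and 425.5 CPM on oma-1 RNAi, against 429.8 and 512.8 CPM on L4440 and 594.6 and 427.9 CPM on oma-1 RNAi in wild type. Every mutant library lay inside the wild-type range or within 3 CPM of it. By edgeR's quasi-likelihood test the log2 fold change came to -0.00 (SE 0.22, 95% interval -0.46 to 0.45, adjusted p = 0.997). At pgl-3 the mutant averaged 364.9 ± 72.3 CPM and wild type 410.3 ± 58.3 CPM (SD, n = 4 each). The difference was -0.17 on the log2 scale (SE 0.22, interval -0.63 to 0.29).

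Of the 4 Vasa-related helicase genes glh-1 was called on oma-1 RNAi, and the others on neither food. Differences between the helicase genes were not tested. At glh-1, which encodes the most studied GLH protein, the mutant libraries had 268.6 and 236.4 CPM on oma-1 RNAi, against 519.8 and 443.7 CPM in wild type on the same food. Both mutant libraries lay well below both wild-type libraries there. On L4440 the mutant had 306.1 and 418.6 CPM, against 418.4 and 362.3 CPM in wild type, and the groups overlapped. The gene fell on oma-1 RNAi by 0.93 on the log2 scale (SE 0.32, 95% interval -1.58 to -0.27, adjusted p = 0.0465, edgeR's quasi-likelihood test), the 1 call among the 9 genes on that food, where 15.7% of tested genes were called and 7.38% fell. On L4440 it stood at -0.14 (SE 0.32, adjusted p = 0.876), and averaged over foods it was -0.53 (SE 0.22, adjusted p = 0.0957, or 0.00433 with the replicate block).

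The glh-1 call stood close to the threshold. The test of the difference between the foods did not pass (log2 difference -0.79, SE 0.45, unadjusted p = 0.0903, adjusted p = 1), so the fall is not shown to depend on the food. Without single libraries the adjusted p on oma-1 RNAi was 0.241 and 0.108 (wild type on oma-1 RNAi, replicates 1 and 2), 0.205 and 0.312 (mutant on oma-1 RNAi), 0.0929 and 0.0945 (mutant on L4440) and 0.057 and 0.0384 (wild type on L4440), so 7 of 8 omissions ended the call. It was also lost with DESeq2 (adjusted p = 0.154). With the 4 GLH genes summed to 1 feature, glh-1 was not tested by itself, and that feature was not called (log2 -0.08, SE 0.31). The call held with the replicate block (adjusted p = 0.000763), with library totals (0.0232) and with a fit to the groups compared (0.048). The log2 change of glh-1 itself lay between -1.02 and -0.80 in these fits.

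At glh-4 the mutant libraries had 1617 and 1282 CPM on L4440 and 1634 and 1250 CPM on oma-1 RNAi, against 1295 and 1076 CPM on L4440 and 1599 and 1097 CPM on oma-1 RNAi in wild type. Replicate 1 was the higher in every group, and the genotypes overlapped (log2 fold change 0.20, SE 0.22, interval -0.25 to 0.65). Values at glh-3 ranged narrowly, with 113.4 to 149.7 CPM in the mutant and 117 to 156.7 CPM in wild type (log2 -0.01, SE 0.24). At glh-2 the mutant had 67.5 to 118.9 CPM and wild type 44.6 to 126.1 CPM, from 8 to 33 reads per library (log2 0.37, SE 0.31, interval -0.27 to 1.01). Single libraries moved this value: it was 0.87 (adjusted p = 0.0686) and 0.12 without wild type on L4440 replicates 1 and 2. Leaving out replicate 1 of the mutant on oma-1 RNAi gave 0.13.

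At deps-1 the point estimate lay below 0 on both foods, and whether it was called depended on the model. The mutant libraries had 92.8 and 113.4 CPM on L4440 and 162.9 and 108.1 CPM on oma-1 RNAi, against 183.4 and 156.1 CPM on L4440 and 238.6 and 150.6 CPM on oma-1 RNAi in wild type. On L4440 both mutant libraries lay below both wild-type libraries, and on oma-1 RNAi the groups overlapped. Averaged over foods, edgeR's quasi-likelihood test put the log2 fold change at -0.63 (SE 0.26, 95% interval -1.15 to -0.10, adjusted p = 0.0835). It missed the threshold there but passed it with the replicate block (-0.68, adjusted p = 0.0103, and adjusted p = 0.0487 on L4440 alone). It also passed when libraries were scaled by their totals (-0.74, adjusted p = 0.0456), which moved the median of all tested genes from -0.078 to -0.193. It missed the threshold with DESeq2, with DESeq2 size factors in edgeR, with no filter and with a mean CPM of at least 50. Without replicate 2 of wild type on oma-1 RNAi the log2 fold change was -0.75. The gene on the opposite strand, Y65B4BL.7, rose at the same time, with 417 ± 74.6 CPM in the mutant and 90.3 ± 34.2 CPM in wild type (SD, n = 4 each, log2 2.18, SE 0.28, adjusted p = 5.29e-07), and the part of the shared bases in either value was not tested.

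The LOTUS genes were the last pair. C38D4.4 (mip-1) averaged 349.3 ± 71.9 CPM in the mutant and 396.6 ± 90.1 CPM in wild type, and F58G11.3 (mip-2) 266.6 ± 14.4 CPM in the mutant and 326.6 ± 72.7 CPM in wild type (SD, n = 4 each). Their log2 fold changes were -0.20 (SE 0.23) and -0.29 (SE 0.23), neither called. F58G11.3 was even across the mutant libraries, at 252.9 to 283.7 CPM, and spread from 234.1 to 406.9 CPM in wild type. C38D4.4 had 296.8 and 279.1 CPM in the mutant on L4440, below 418.4 and 306.6 CPM in wild type, but on oma-1 RNAi its 422.7 and 398.5 CPM lay between the 512.7 and 348.7 CPM of wild type.

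**Figure D3:**
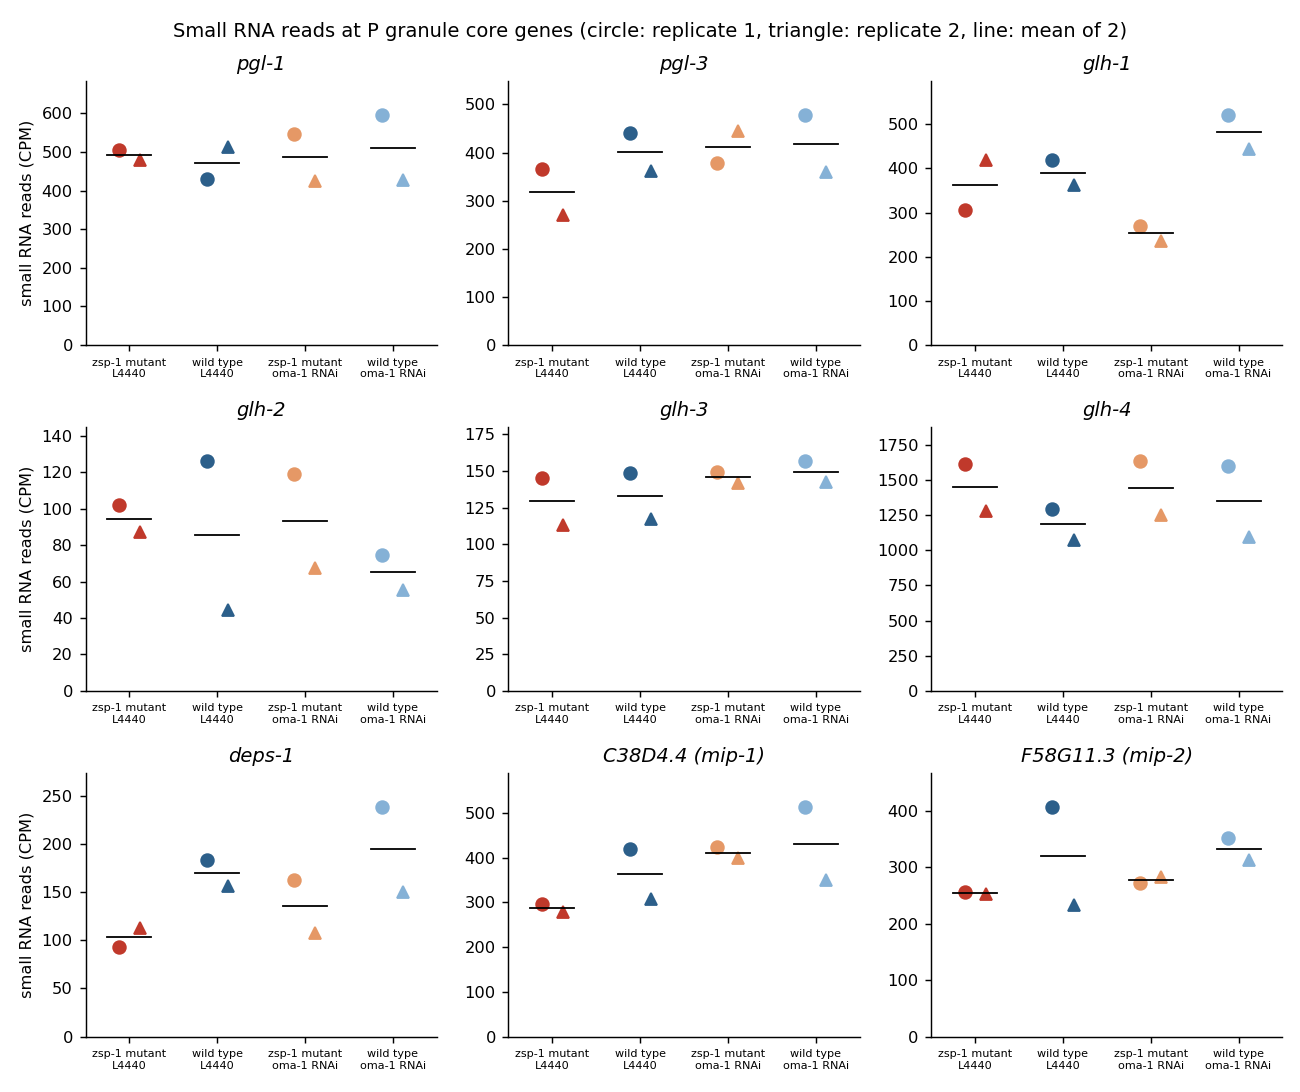
CPM at each gene in the 8 libraries, on linear axes that start at 0, with circles for replicate 1, triangles for replicate 2 and a line at the mean of 2. At glh-1 the 2 mutant libraries on oma-1 RNAi (268.6 and 236.4 CPM) lie below both wild-type libraries of that food, and at pgl-1 all groups lie at about the same level.

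On L4440, where 16.4% of tested genes were called, 0 of the 9 was called by edgeR's test, 0 had an unadjusted p under 0.05 and DESeq2 called 0. Both mutant libraries lay below both wild-type libraries at 2 of the 9 on L4440 (deps-1 and C38D4.4) and at 2 of the 9 on oma-1 RNAi (glh-1 and F58G11.3), against 26.1% and 27.1% of tested genes. The reverse, both above, was seen at 0 of the 9 on either food, against 22.9% and 21.0% of tested genes. The 2 foods gave medians of -0.14 and -0.07 over the 9 genes.

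**Figure D4:**
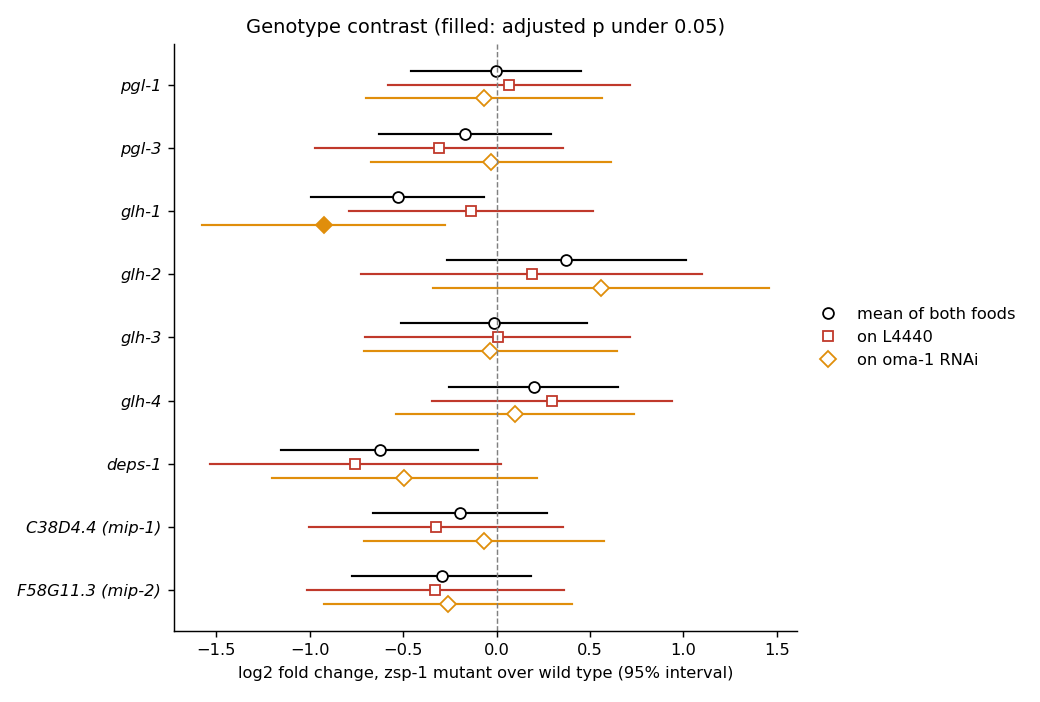
Log2 fold change of zsp-1 mutant over wild type with its 95% interval for each gene, averaged over foods (circles), on L4440 (squares) and on oma-1 RNAi (diamonds); a filled symbol marks an adjusted p under 0.05. The diamond of glh-1 at -0.93 is the 1 filled symbol, and most intervals span 0.

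Shares within a library do not depend on how libraries are scaled, so they were set beside the CPM values. Of all reads at the 9 genes, glh-4 took 43.9 and 38.9% in the mutant on L4440 and 41.3 and 37.2% on oma-1 RNAi, against 33.5 and 33.9% on L4440 and 35.3 and 32.9% on oma-1 RNAi in wild type. The genotypes did not overlap. The share of deps-1 was 3.32 ± 0.661% in the mutant and 4.86 ± 0.322% in wild type (SD, n = 4 each), also without overlap, and that of glh-1 was 8.71 ± 2.74% in the mutant and 11.8 ± 1.07% in wild type, with overlap, since mutant replicate 2 on L4440 stood at 12.7%. There were 5.28 and 3.06 reads at glh-4 per read at glh-1 in the mutant on L4440 and 6.08 and 5.29 on oma-1 RNAi, against 3.10 and 2.97 on L4440 and 3.08 and 2.47 on oma-1 RNAi in wild type. The shares of all members but glh-4 and deps-1 overlapped between the genotypes. How often such shares separate among other genes was not determined. These 3 genes and the ratio were chosen after the values were seen, so no test is given. A higher share of glh-4 lowers the shares of the others, and lower levels of the others raise the share of glh-4. By CPM none of the 9 genes separated the genotypes, which 12.3% of tested genes did in each direction.

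**Figure D5:**
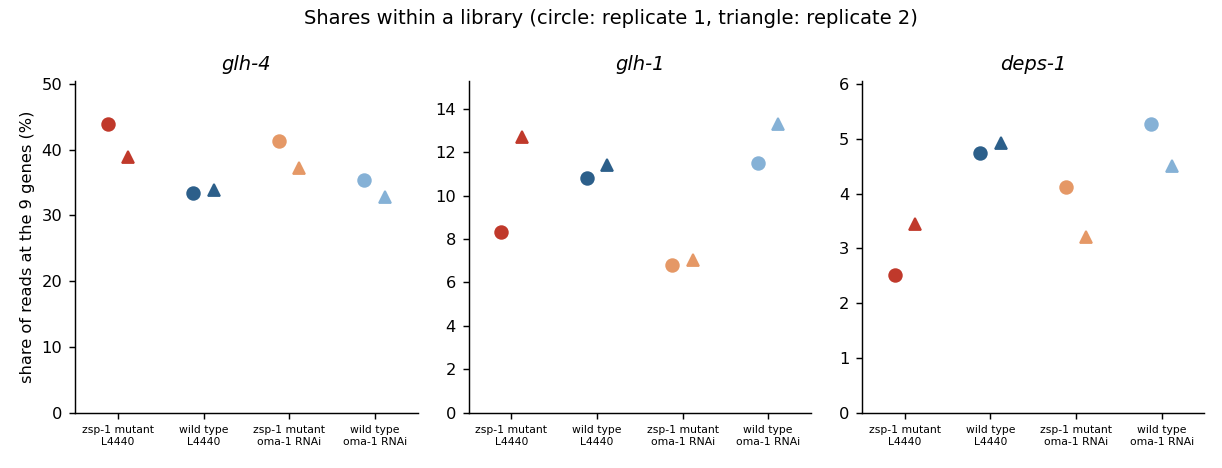
Share of all reads at the 9 genes that fell on glh-4, glh-1 and deps-1, in percent, in the 8 libraries (circles replicate 1, triangles replicate 2; axes start at 0). The mutant libraries lie at 37.2 to 43.9% for glh-4, above the 32.9 to 35.3% of wild type, and at 2.52 to 4.12% for deps-1, below the 4.51 to 5.27% of wild type.

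The food itself left the 9 genes where they were within the error of the test. Reads at oma-1 rose by 6.82 on the log2 scale in wild type on oma-1 RNAi (SE 0.47) and by 6.85 in the mutant (SE 0.47), each against L4440, so the treatment reached the libraries of both genotypes. At the P granule genes 0 of 9 were called in either genotype by edgeR's test, 0 had an unadjusted p under 0.05 and DESeq2 called 0, and 0.0438% of tested genes were called in each. Log2 fold changes of the 9 on oma-1 RNAi against L4440 ran from -0.37 to 0.30 in wild type, with a median of 0.17, and from -0.48 to 0.51 in the mutant, with a median of 0.12. Medians over all tested genes were 0.01 and -0.02. Of the 9, 8 lay above 0 in wild type and 5 in the mutant, beside 2315 and 2133 of 4567 tested genes. The response did not differ between the genotypes at any of the 9 by the test of the difference (0 called, 0 with an unadjusted p under 0.05, DESeq2 0, and 0% of tested genes). Both libraries on oma-1 RNAi lay above both on L4440 in wild type at 1 of the 9, glh-1 (13% of tested genes), and both below at 0 (12.5%). In the mutant pgl-3, C38D4.4 and F58G11.3 lay above (14.1% of tested genes) and glh-1 below (17.1%).

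Within groups, the spread between replicates was 0.381 (glh-3, 242 reads) to 10.8 (glh-4, 2371 reads) times that of counting alone, as chi-square per degree of freedom. This measure grows with read number, and the fitted biological coefficient of variation was 0.168 to 0.213 over the 9 genes.

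Lists of related genes were set beside the members. Of 32 other genes, listed from general knowledge as P granule genes, 31 were matched and 26 tested. In the averaged genotype comparison 0 rose, 1 fell and 25 missed the threshold, where 23.1% of all tested genes were called. Their median log2 fold change was -0.12, beside -0.08 over all tested genes. The gene that fell was gls-1, a cofactor of germline translational control. It had 157.7 and 122.1 CPM in the mutant on L4440 and 176.1 and 182.4 CPM on oma-1 RNAi, against 401.2 and 351.1 CPM on L4440 and 259.9 and 245.6 CPM on oma-1 RNAi in wild type. All 4 mutant libraries lay below all 4 wild-type libraries, as they did at 12.3% of tested genes. That was also so at meg-4 and at hrde-1, which is on this list although it encodes a nuclear Argonaute, neither called. For gls-1 edgeR's quasi-likelihood test gave a log2 fold change of -0.94 (SE 0.23, adjusted p = 0.00251). By food it was called on L4440 (-1.38, adjusted p = 0.00297) and not on oma-1 RNAi (-0.50, adjusted p = 0.416), and the difference between the foods did not pass (0.88, adjusted p = 1). The next by p were meg-4, for a disordered protein of embryonic P granules (-1.02, SE 0.44), and the Argonaute gene wago-1 (0.56, SE 0.24, adjusted p = 0.105), neither called. At meg-4 there were 3 to 7 reads per mutant library and 9 to 14 per wild-type library. It passed the filter on low counts only through wild-type libraries, so its test is given no weight and its values are a description. For wago-1 the call passed with the replicate block (0.53, adjusted p = 0.019), and the log2 fold change was 0.74 without wild-type replicate 1 on L4440.

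Of 14 genes that act on PGL or GLH proteins or on granule assembly, 13 were matched and 7 tested; 1 was called, higher in the mutant, and 6 missed the threshold, where 23.1% of all tested genes were called. Their median log2 fold change was 0.19. The gene called was epg-2, named here because it was the 1 call, after its values were seen. It passed the filter on low counts only through the mutant libraries, so its call is given no weight and its reads are a description. EPG-2 links PGL granules to the autophagy machinery in embryos, where it promotes their removal from somatic cells. The mutant libraries had 20 and 10 reads on L4440 and 12 and 11 on oma-1 RNAi, against 0 and 0 reads on L4440 and 1 and 2 on oma-1 RNAi in wild type. In all there were 53 reads in the mutant and 3 in wild type.

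Profiles over the 8 libraries were compared with all other tested genes. The gene most like pgl-1 was the cell death activator ced-4 (Pearson's r of log2 CPM 0.955), that most like glh-4 was the chromokinesin gene klp-19 (0.970), and that most like C38D4.4 was the proteasome subunit gene rpn-6.1 (0.946). For pgl-3 it was szy-4 (0.969), for glh-1 ZK856.11 (0.938), for glh-2 nbet-1 (0.971), for glh-3 lpd-6 (0.980), for deps-1 C09G4.4 (0.935) and for F58G11.3 K10D2.5 (0.987). No member was the most like another. These are descriptions of 8 libraries that share a scaling, each the highest of 4566 values.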

How the data were processed

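Per the file headers, each deposited table lists genes with unnormalised read counts (the authors' featureCounts output). The submitters' processing notes name cutadapt 1.14, TopHat2 2.1.1, featureCounts 1.6.0 and build WBcel235. Strand setting, length filters and the treatment of multimapping reads are not given, so sense and antisense reads cannot be told apart.

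R 4.3.3 and edgeR 4.0.16 were used. filterByExpr (minimum count 10) kept 4567 genes and TMM scaled the libraries. The quasi-likelihood test was run on 4 groups, 8 libraries in all, leaving 4 residual degrees of freedom. Benjamini-Hochberg adjustment covered all tested genes, with calls under 0.05. Each SE was obtained by dividing the size of the log2 change by the root of its F statistic. CPM used TMM-scaled totals of the tested genes, and RPKM divided CPM by the counted length. Same-numbered libraries deviated together in all 6 pairs of groups (r of deviations 0.171 to 0.347). This pairing comes from the data, since no label says what a number marks, so the test without the block stayed the main one and blocked values are given where they change a call. Alternatives were other scalings and filters, DESeq2 1.42.0, a replicate block, fits to the groups compared, summed paralogs and each library left out. The members, the lists and the rule for named genes (all members, called genes of the P granule list and its 3 smallest p) were chosen with earlier results of these data known. The script was tested on simulated data. In the averaged genotype comparison it recovered 89 of 100 simulated 4-fold changes and 44 of 100 simulated 2-fold changes. A 2-fold change at a member could therefore be missed. Sequence shared between paralogs was not analysed here.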

Additional observations from a re-analysis of the deposited data

How the results depend on the processing

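In the averaged genotype comparison 0 members were called, but 2 (glh-1 at -0.66 and deps-1 at -0.74) with library totals, 2 with the replicate block (glh-1 at -0.55, adjusted p = 0.00433, and deps-1 at -0.68, adjusted p = 0.0103), and 0 to 1 over the omissions of single libraries. On L4440 the block called 1, deps-1 (adjusted p = 0.0487). On oma-1 RNAi the 1 call became 0 with DESeq2 size factors in edgeR, with no filter, with a mean CPM of at least 50, with DESeq2 and with summed paralogs, and 0 to 1 over omissions; with the block it stayed 1 (glh-1, adjusted p = 0.000763). In all genes the averaged comparison had 1056 calls, 1361 with the block and 792 with DESeq2. Over all tested genes the L4440 comparison had 749 calls, 482 with DESeq2 and 482 without mutant replicate 1 on L4440. The oma-1 RNAi comparison had 719, 462 without wild-type oma-1 replicate 2 and 467 without mutant oma-1 replicate 1. The food comparison in wild type had 2, 26 with no filter, 24 with the block and 75 without wild-type L4440 replicate 2, and that in the mutant 2, 12 with the block. The difference between foods had 0 calls, 1 with no filter, 2 with the block and 6 without wild-type L4440 replicate 2. Library totals put the median log2 fold change of all tested genes at -0.193, against -0.078 with TMM, and member values under them include that shift. The members took 0.35 to 0.458% of reads in replicates numbered 1 and 0.276 to 0.312% in those numbered 2, and 4 of 9 were higher in replicate 1 in all 4 groups, against 12.6% of tested genes. The block also called wago-1 (adjusted p = 0.019) and changed no other call of the members in the genotype comparisons, nor that of gls-1 or epg-2 in the averaged one.

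Signs near 0 turned. With DESeq2 size factors, no filter, a mean CPM of at least 50 and DESeq2, pgl-1 in the averaged comparison was 0.042, 0.042, 0.010 and 0.042. For glh-3 it was 0.030, 0.033 and 0.021 with size factors, no filter and DESeq2, and on oma-1 RNAi 0.023, 0.004 and 0.022, with pgl-3 there at 0.031, 0.002 and 0.032. With library totals pgl-1 and glh-3 on L4440 were -0.079 and -0.129, and glh-3 with the block -0.013. Omissions ranged from -0.093 to 0.139 (pgl-1) and -0.114 to 0.111 (glh-3) in the averaged comparison. On L4440 they ranged from -0.067 to 0.233 (pgl-1), -0.313 to 0.114 (glh-1), -0.343 to 1.109 (glh-2), -0.215 to 0.190 (glh-3) and -0.638 to 0.115 (F58G11.3). On oma-1 RNAi they ranged from -0.265 to 0.198 (pgl-1), -0.197 to 0.195 (pgl-3), -0.080 to 0.043 (glh-3), -0.127 to 0.404 (glh-4) and -0.299 to 0.246 (C38D4.4). None of these was called, and the cause was not tested. The difference in the share of glh-4, a gene chosen for this after its values were seen, was 5.25 to 7.46 percentage points over omissions. As the shares of the genotypes did not overlap, no omission could have reversed it. Depth limits glh-2, glh-3 and deps-1 most.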
